A study of Danio rerio with 14 samples.

Results

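The MAPK signaling pathway genes described here are the genes whose ATAC-seq peaks carry the KEGG term MAPK signaling pathway in the authors' annotation. Left out by gene name were jun, jund, fosab, fosb, hsp70.1, hsp70.2, hsp70l, dusp1, gadd45ba, flnca, flnb, cacnb2a, kdrl and tnfb. In the table shared by 4 of the groups, 147 member peaks belonged to 130 genes, out of 16609 nuclear peaks, 8278 of them with an assigned gene. 110 member peaks lay at a promoter, with the peak centre at most 500 bp from the transcription start site, and 37 were distal, 22 of these inside the gene body. In the separate A-Fos table, 66 member peaks belonged to 63 genes, out of 6338 nuclear peaks, with 51 at a promoter and 15 distal. All 130 gene IDs were found in the gene name table, where 47 have another name than in the authors' annotation.

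MAPK cascades pass a signal from receptors and small GTPases through a chain of kinases, from a MAP3K to a MAP2K to a MAPK. The ERK branch mostly follows growth factor receptors and Ras, while the JNK and p38 branches mostly follow stress and cytokines, and phosphatases switch the kinases off. Their nuclear targets include Jun and Fos, the subunits of AP-1, and growth factor signals such as FGF and PDGF are known to act in the injured zebrafish heart. ATAC-seq reads the accessibility of the DNA at these genes, not the activity or amount of the kinases.

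The series asks how AP-1 shapes cardiomyocyte chromatin in heart regeneration. Regenerating gata4:EGFP+ cardiomyocytes were sorted by FACS 4 days after cryoinjury (2 libraries of 5000 cells). Uninjured cardiomyocytes overexpressing junba or junbb, transgenes marked CM: in the labels, were isolated on a density gradient 7 days after induction (2 libraries of 50000 cells each). Uninjured myl7:nucDsRed+ cardiomyocytes, sorted by FACS through a cardiomyocyte reporter (2 libraries of 5000 cells), were the control of these 3 groups. In the A-Fos table, A-Fos (+) cardiomyocytes, in which 4-hydroxytamoxifen (0.5 mg/mL) induces a dominant-negative inhibitor of AP-1, were set against A-Fos (-) cardiomyocytes from fish given ethanol vehicle. Both came from the wound border 4 days after cryoinjury, were isolated on a density gradient and had 3 libraries of 5000 cells. Each library pooled the ventricles of 6 adult hearts, and cryoinjured fish were of both sexes and 4 to 12 months old. Nothing more is said of how the replicates were separated, so the p-values measure the spread between these pools. The driver of the CM: transgenes is not named in the labels, and whether the myl7:nucDsRed+ fish received 4-hydroxytamoxifen is not stated.

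The groups differ in more than the factor under study. Injury goes with the sorted reporter, and overexpression goes with the isolation method and with the cell number, so these cannot be told apart in these libraries. Peaks of 13 cardiomyocyte marker genes (16 peaks) summed to 719 to 762 normalized counts in gata4:EGFP+, 365 to 639 in junba, 325 to 351 in junbb and 1430 to 1625 in myl7:nucDsRed+ libraries, with at most 1 of these peaks at 0 in a library. Peaks of 11 endothelial and endocardial markers (13 peaks) summed to 256 to 265 in gata4:EGFP+, 460 to 526 in junba, 711 to 764 in junbb and 125 to 135 in myl7:nucDsRed+ libraries, with none at 0. Leukocyte markers (4 peaks) summed to 74 to 81 in gata4:EGFP+, 31 to 56 in junba, 28 to 32 in junbb and 20 to 32 in myl7:nucDsRed+ libraries. The part of these cells in the results below was not tested. In bulk libraries, fewer open cells and less open chromatin per cell cannot be told apart. The mitochondrial peak held 72.0% to 73.4% of the summed values in gata4:EGFP+ and 82.8% to 87.9% in the other 6 libraries of the shared table. Here a value is a normalized count, the authors' background-corrected and size-factor scaled number of reads in a peak.

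Per length of peak, MAPK pathway promoter peaks had levels close to those of other promoter peaks. Pathway genes without a peak are not members, so the share of pathway promoters that were open was not measured. Promoter members had a median of 128 normalized counts per kb over the 8 libraries, against 117 for all promoter peaks. Distal members had 101, against 91.7 for all distal peaks with a gene. In the A-Fos table the medians were 139 against 126 for promoters and 124 against 110 for distal peaks. The highest level per kb belonged to cdc25b, a phosphatase that activates cyclin-dependent kinases, with 500 in the shared and 489 in the A-Fos table. After it in the shared table came a peak inside the Ras gene hrasa, 861 bp from the start site, with 399, si:zfos-2326c3.2 with 365, max, the dimerization partner of Myc, with 322, and si:dkey-44g17.6 with 302 per kb. In the A-Fos table the order was si:zfos-2326c3.2 with 345, a distal peak of the chaperone gene hsp70.3 with 283, a distal peak of the adaptor gene grb2b with 274, and srfa, a serum response factor, with 269 per kb. These orders are levels only, and neighbours in them were not tested against each other.

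142 of the 147 members had a mean of at least 10 and were tested, 109 at a promoter and 33 distal. The 5 others, distal peaks of dusp5, nfatc1, tgfb1a and zak and a promoter peak of tgfb1b, were too low. 46 of the 142, from 43 genes, were called in at least 1 of the 3 comparisons with myl7:nucDsRed+ cardiomyocytes. This count was not made over all peaks, so it is not read as a trait of the pathway. Of all 14776 tested peaks, 12.3% were higher and 6.61% lower in gata4:EGFP+ cells. With junba these shares were 10.3% and 15.9%, and with junbb 12.6% and 16.3%. All 3 comparisons share those 2 control libraries, so a peak that stands apart in them moves in all 3. 45 of these 46 peaks are shown by role in the plot of called members.

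**Figure D1:**
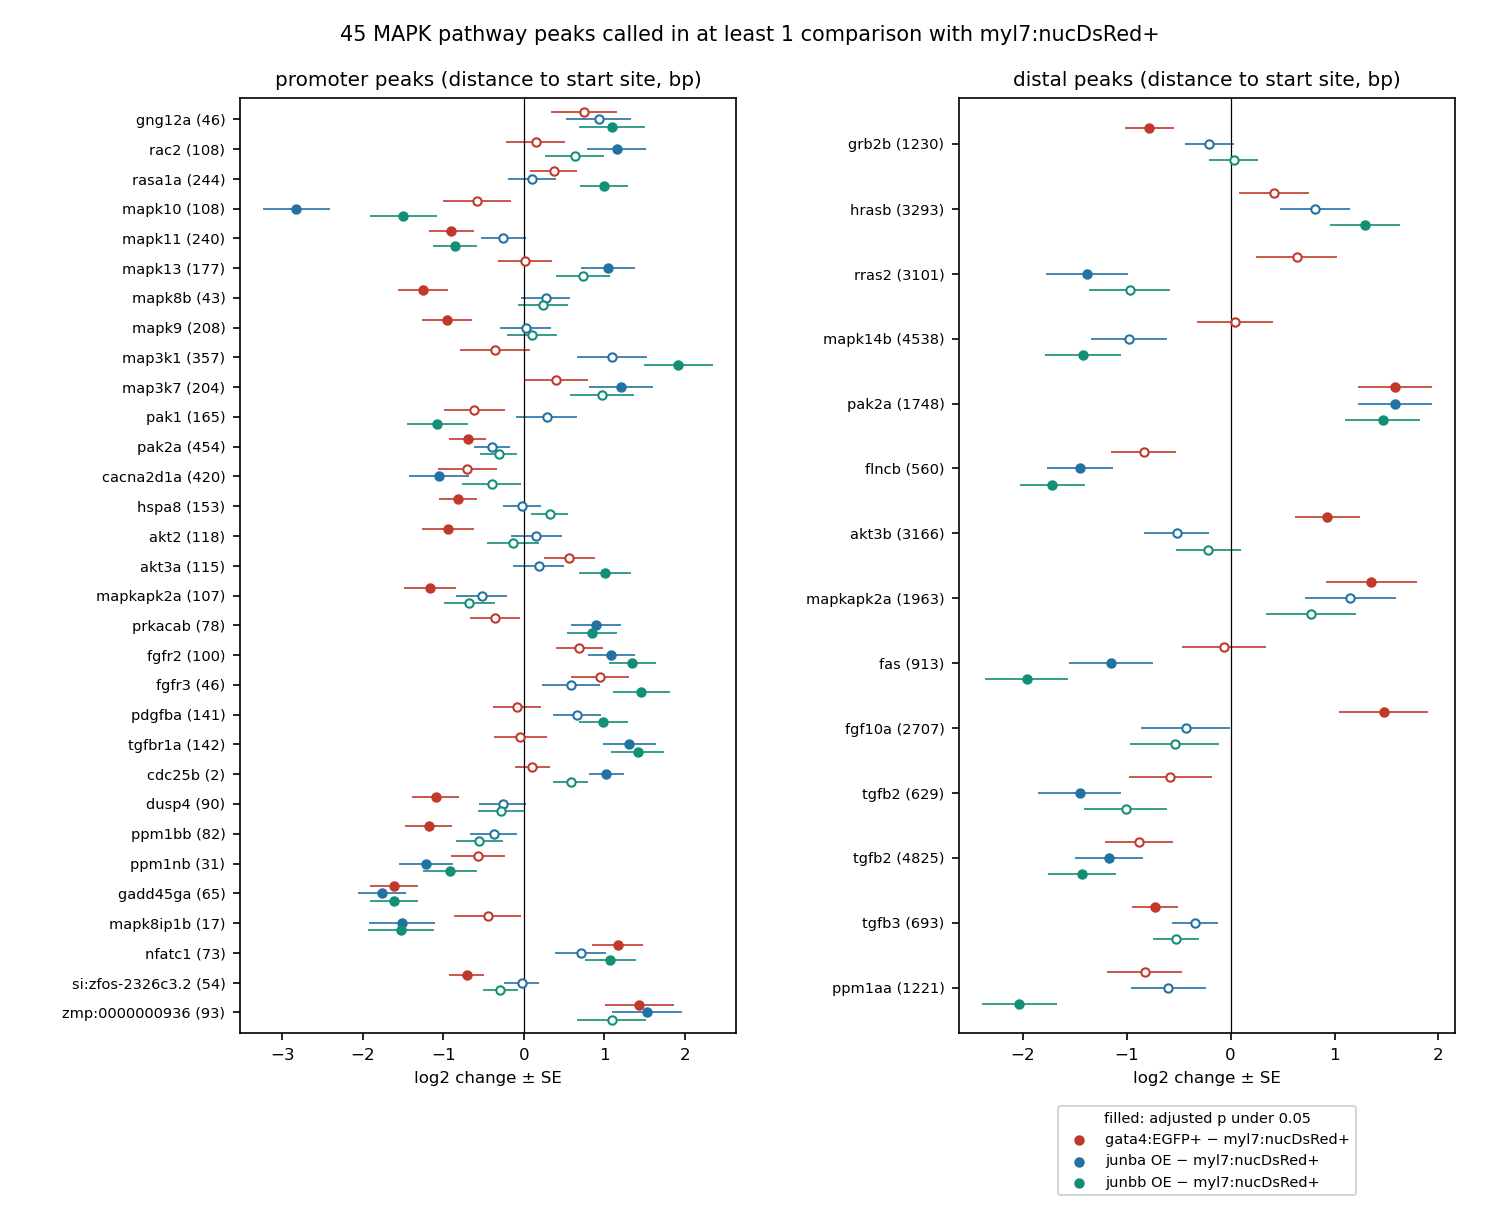
Log2 change on the log2(value + 5) scale (x axis) with its standard error for 45 of the 46 MAPK pathway peaks called against myl7:nucDsRed+ in at least 1 comparison, promoter peaks left and distal peaks right, with the distance to the start site in bp. Filled points are called at adjusted p under 0.05. gadd45ga is filled on the low side and the distal peak of pak2a on the high side in all 3 comparisons.

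In regenerating gata4:EGFP+ cardiomyocytes, MAPK pathway promoters were called at shares near those of all promoters, with the lowest p at gadd45ga, which was lower than in myl7:nucDsRed+ cardiomyocytes. Among 109 promoter members, 2 were higher and 11 lower (limma, adjusted p under 0.05), beside 2.57% higher and 7.78% lower among all 5653 tested promoter peaks. Among 33 distal members, 4 were higher and 2 lower, beside 12.1% and 7.89% of 2219 distal peaks with a gene. Over all 142 members this was 6 higher and 13 lower, beside 12.3% and 6.61% of all 14776 peaks. The median log2 change of promoter members was -0.30, against -0.21 for all promoter peaks, and that of distal members -0.05, against -0.08. The share of higher calls depended on scaling. Of the member calls 31.6% were higher as deposited and 31.8% (7 higher, 15 lower) with quantile normalization. This share was 75.0% (9 higher, 3 lower) with equal totals and 64.3% (9 higher, 5 lower) when libraries were centred on peaks near start sites. Over all peaks 1818 calls were higher and 977 lower as deposited, and 1822 and 1418 with quantile normalization. With equal totals they were 2170 and 302, and with centring 2322 and 436, so all peaks shared the shift towards higher calls. Equal totals and centring moved the median of all peaks to 0.15 and 0.14, against -0.06 as deposited. The member median moved to -0.02 and -0.05, against -0.25. Leaving out 1 library leaves a group with a single library. Over these fits the member median log2 change stayed between -0.268 and -0.169, while, as among all peaks, the counts of called members fell. They were 0 higher and 4 lower without gata4:EGFP+ replicate 1, 0 and 1 without gata4:EGFP+ replicate 2, 5 and 6 without myl7:nucDsRed+ replicate 1, and 1 and 1 without myl7:nucDsRed+ replicate 2.

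With junba overexpression too, shares of called MAPK pathway promoters were near those of all promoters. 9 promoter members were higher and 5 lower than in myl7:nucDsRed+ cardiomyocytes, beside 11.9% and 5.52% of all promoter peaks. Among distal members 1 was higher and 5 lower, beside 9.55% and 18.0% of distal peaks with a gene, and all members together had 10 higher and 10 lower, beside 10.3% and 15.9% of all peaks. Promoter members had a median log2 change of 0.13, against 0.16 for all promoter peaks, and distal members -0.35, against -0.15. Of the member calls 50.0% were higher as deposited and 36.8% (7 higher, 12 lower) when centred on peaks near start sites, where the median of all peaks was -0.21, against -0.07 as deposited. Among the calls of all peaks 39.3% and 28.3% were higher in the same order. With 1 library left out, the member median log2 change ran from -0.00105 to 0.157, and that of all peaks from -0.0893 to -0.058. The counts of called members then moved in the same direction as those of all peaks.

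With junbb overexpression 11 promoter members were higher and 6 lower than in myl7:nucDsRed+ cardiomyocytes, beside 11.9% and 5.52% of all promoter peaks. Distal members had 2 higher and 5 lower, beside 10.7% and 18.2%, and all members 13 higher and 11 lower, beside 12.6% and 16.3%. The median log2 change was 0.16 for promoter members, against 0.17 for all promoter peaks, and -0.19 for distal members, against -0.08. Of the member calls 54.2% were higher as deposited, 75.0% (24 higher, 8 lower) with equal totals, where the median of all peaks was 0.24, and 40.7% (11 higher, 16 lower) when centred on peaks near start sites, where it was -0.17, against -0.02 as deposited. Among the calls of all peaks 43.6%, 62.7% and 32.8% were higher in the same order. With 1 library left out, the member median log2 change ran from 0.077 to 0.155, and that of all peaks from -0.0438 to -0.0107. The counts of called members then fell, as did those of all peaks.

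**Figure D2:**
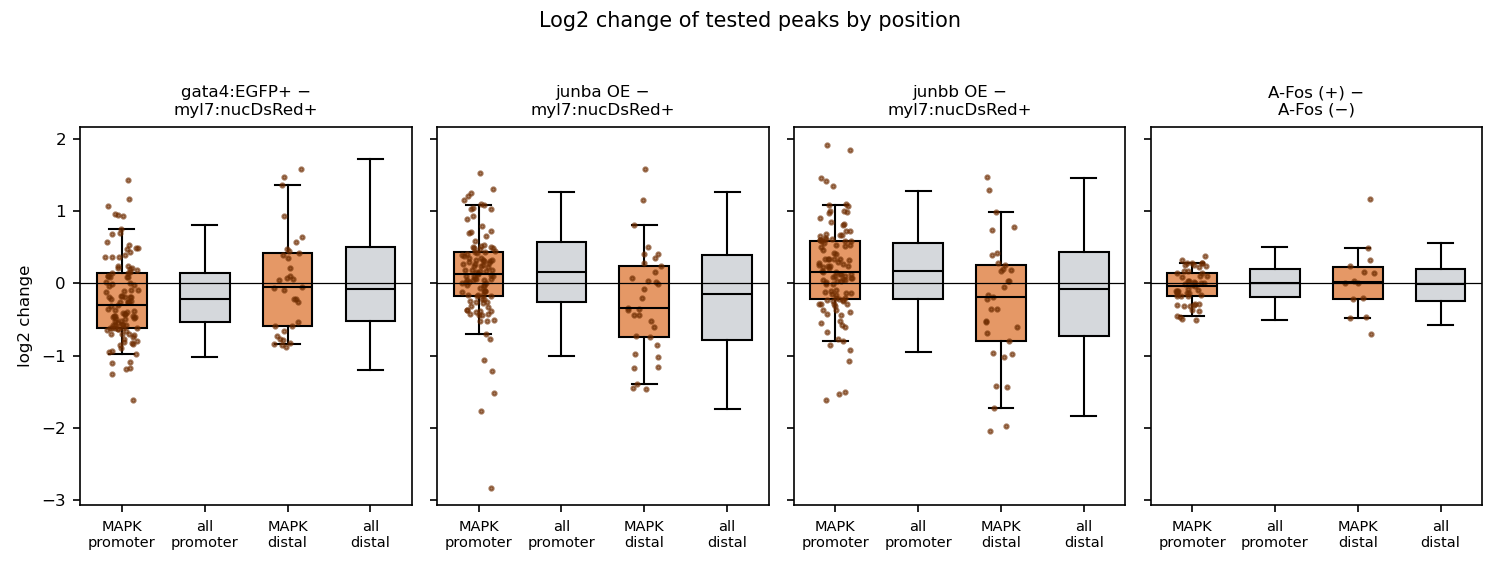
Log2 change on the log2(value + 5) scale (y axis) of tested peaks in 4 comparisons, MAPK pathway members (orange, each peak a point) beside all tested peaks with a gene (grey), promoter and distal peaks apart. Boxes span the quartiles with the median as a line and whiskers reach from 5% to 95% of the peaks. The member boxes overlap those of all peaks at the same position in every panel, with promoter medians of -0.30, 0.13 and 0.16 against myl7:nucDsRed+ and of -0.04 in A-Fos (+) against A-Fos (-).

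Among receptors and their ligands, promoters of FGF and TGF-beta receptor genes and of a PDGF ligand gene were called higher with junb overexpression. Of 5 promoters tested in this role, those of 4 receptor genes and 1 ligand gene, 4 were higher with junbb, 2 with junba and none in gata4:EGFP+ cells, each against myl7:nucDsRed+ cells. Among all promoter peaks 11.9% were higher with junbb, 11.9% with junba and 2.57% in gata4:EGFP+ cells. fgfr2, a receptor tyrosine kinase for FGF, had 60 and 77 normalized counts in junba, 75 and 91 in junbb and 52 and 49 in gata4:EGFP+ libraries, against 28 and 31 in myl7:nucDsRed+ libraries. All 6 values lay above both controls. The log2 change was 1.08 ± 0.29 (SE) with junba (adjusted p = 0.00918), 1.35 ± 0.29 with junbb (0.00152) and 0.69 ± 0.29 in gata4:EGFP+ cells, which was not called. fgfr3, a related FGF receptor, had 42 and 49 in junbb, 21 and 24 in junba and 27 and 34 in gata4:EGFP+ libraries, against 16 and 11 in myl7:nucDsRed+ libraries, and was called with junbb (log2 1.46 ± 0.36, adjusted p = 0.00405). tgfbr1a, a type I receptor of TGF-beta, had 74 and 69 in junba, 70 and 85 in junbb and 18 and 34 in gata4:EGFP+ libraries, against 23 and 29 in myl7:nucDsRed+ libraries. Its gata4:EGFP+ values spanned the control values, while the overexpressing libraries lay well above them (log2 1.31 ± 0.33, adjusted p = 0.00595 with junba, and 1.41 ± 0.33, adjusted p = 0.00268 with junbb). pdgfba, which encodes a PDGF ligand, was higher with junbb (72 and 80 against 40 and 32 in myl7:nucDsRed+ libraries, log2 0.99 ± 0.30, adjusted p = 0.0161). tgfbr1b was not called in any comparison (log2 0.31 with junba, 0.53 with junbb, -0.61 in gata4:EGFP+ cells). The fgfr2 call was lost with junba without junba replicate 2 (adjusted p = 0.061), and the fgfr3 and tgfbr1a calls with junbb without junbb replicate 2 (0.056 and 0.0511), as was that of pdgfba, which was also lost without junbb replicate 1 or myl7:nucDsRed+ replicate 2 (adjusted p up to 0.123). The endothelial and endocardial marker sums were highest in the same junba and junbb libraries, and their part in this was not tested.

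Distal peaks of the ligand gene tgfb2 and the death receptor gene fas were lower with junb overexpression, and that of the ligand gene fgf10a was higher in regeneration. fgf10a, an FGF ligand, has a peak outside its gene at chr21:19632593-19632964 (GRCz11), 2707 bp from the start site. It had 56 and 43 in gata4:EGFP+ libraries, 11 and 8 in junba and 15 and 4 in junbb libraries, against 15 and 14 in myl7:nucDsRed+ libraries. Only the gata4:EGFP+ libraries stood above the control (log2 1.47 ± 0.43, adjusted p = 0.0194). That call was lost with any 1 library of the comparison left out (adjusted p up to 0.188). fas, a death receptor, had a peak 913 bp from its start site with 8 and 14 in junba, 5 and 3 in junbb and 31 and 26 in gata4:EGFP+ libraries, against 32 and 28 in myl7:nucDsRed+ libraries. Its junbb change of -1.97 ± 0.40 (adjusted p = 0.000965) held with each library left out. The junba change of -1.15 ± 0.40 (adjusted p = 0.0375) was lost without junba replicate 1 or either control library (adjusted p up to 0.151), and with equal totals or quantile normalization (up to 0.0846). tgfb2, a TGF-beta ligand, has a pair of distal peaks, both outside the gene. The peak at 4825 bp had 31 and 33 in junba, 23 and 29 in junbb and 50 and 32 in gata4:EGFP+ libraries, against 84 and 73 in myl7:nucDsRed+ libraries, and fell by 1.17 with junba (adjusted p = 0.0113) and by 1.43 with junbb (adjusted p = 0.00228). The junbb call held with each library left out and the junba call was lost without myl7:nucDsRed+ replicate 1 (adjusted p = 0.0795). The peak at 629 bp was lower with junba (20 and 8 against 35 and 56 in myl7:nucDsRed+ libraries, log2 -1.45 ± 0.40, adjusted p = 0.0107), a call lost without junba replicate 2 or myl7:nucDsRed+ replicate 2 (adjusted p up to 0.128). The distal peak of tgfb3, also on the epicardial and fibroblast marker list, was lower in gata4:EGFP+ cells (102 and 114 against 178 and 186 in myl7:nucDsRed+ libraries, log2 -0.73 ± 0.22, adjusted p = 0.0239), with no call under any of 3 other scalings (adjusted p up to 0.2).

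Between receptor and cascade stand the Ras and Rac GTPases and their adaptors. Of 22 promoter members of this role, none was called in gata4:EGFP+ cells, rac2 was higher with junba, and gng12a and rasa1a were higher with junbb, each against myl7:nucDsRed+ cells. This was 4.55% higher with junba and 9.09% with junbb, beside 11.9% of all promoter peaks in either comparison, while 2.57% were higher and 7.78% lower in gata4:EGFP+ cells. rasa1a, a GTPase-activating protein that switches Ras off, had 71 and 85 in junbb libraries, against 35 and 38 in myl7:nucDsRed+ libraries (log2 1.00 ± 0.30, adjusted p = 0.0147). gng12a, a G protein gamma subunit, had 37 and 28 against 14 and 11 in myl7:nucDsRed+ libraries (log2 1.09 ± 0.41, adjusted p = 0.0463) and lost its call with any 1 library left out (adjusted p up to 0.229). rac2, a Rac GTPase, had 38 and 57 in junba libraries, against 22 and 15 in myl7:nucDsRed+ libraries (log2 1.15 ± 0.36, adjusted p = 0.0232). The rac2 call was lost without junba replicate 2 or myl7:nucDsRed+ replicate 2 (adjusted p up to 0.152), and the rasa1a call without junbb replicate 2 or myl7:nucDsRed+ replicate 1 (adjusted p up to 0.137). The Ras gene kras was called in no comparison and had a log2 change of -0.63 in gata4:EGFP+ cells (adjusted p = 0.0612), 0.25 with junba and 0.16 with junbb. The distal hrasa peak, the most open distal member per kb, had log2 changes of 0.06, 0.08 and -0.16 in the same order. Distal peaks of other members of this role were called once each, rras2 lower with junba (log2 -1.39 ± 0.39, adjusted p = 0.0127), hrasb higher with junbb (log2 1.30 ± 0.34, adjusted p = 0.00599) and the adaptor gene grb2b lower in gata4:EGFP+ cells (log2 -0.78 ± 0.24, adjusted p = 0.0244). The hrasb call was lost without myl7:nucDsRed+ replicate 2 (adjusted p = 0.0576), that of rras2 without this library or junba replicate 2 (up to 0.207), and that of grb2b with any 1 library left out (up to 0.17) and under each of 3 other scalings (up to 0.213). The gng12a call was also lost when centred on peaks near start sites (0.087).

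Among upstream kinases, the clearest change was at an internal peak of pak2a, a p21-activated kinase that acts below Rac and Cdc42. This peak lies inside the gene at chr2:36609987-36610283 (GRCz11), 1748 bp from the start site. It had 37 and 40 in gata4:EGFP+, 30 and 49 in junba and 33 and 37 in junbb libraries, against 9 and 10 in myl7:nucDsRed+ libraries. All 6 values were at least 30 and both controls at most 10, and pak2a was the only member called higher in all 3 comparisons. Its log2 change was 1.59 ± 0.36 in gata4:EGFP+ cells (adjusted p = 0.00411), 1.59 ± 0.36 with junba (0.00299) and 1.46 ± 0.36 with junbb (0.00393). The junba and junbb calls held with each library left out, and the gata4:EGFP+ call was lost without either gata4:EGFP+ library (adjusted p up to 0.0623). At the pak2a promoter the order was the opposite in regeneration, with 88 and 129 in gata4:EGFP+ libraries, against 179 and 173 in myl7:nucDsRed+ libraries (log2 -0.70 ± 0.23, adjusted p = 0.0347). That promoter call was not kept under any of 3 other scalings (adjusted p up to 0.259) or with any 1 library left out (up to 0.374).

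map3k1 and map3k7 encode MAP3Ks that feed the JNK and p38 branches. The map3k1 promoter peak had 40 and 28 in junbb, 14 and 20 in junba and 4 and 2 in gata4:EGFP+ libraries, against 8 and 3 in myl7:nucDsRed+ libraries. It was near the detection limit in the sorted libraries and higher with junbb (log2 1.92 ± 0.43, adjusted p = 0.00214). With single libraries left out the log2 change ran from 1.57 to 2.27. The filter on the mean was applied once, over all libraries, and the high junbb values helped this peak to pass it. The omissions did not apply that filter again, so they do not test this. map3k7, also known as TAK1, had 43 and 41 in junba libraries, against 8 and 27 in myl7:nucDsRed+ libraries (log2 1.20 ± 0.40, adjusted p = 0.0294). Its controls differed widely, and the call was lost without either junba library or myl7:nucDsRed+ replicate 1 (adjusted p up to 0.383) and when centred on peaks near start sites (0.0538). The promoter of pak1 was lower with junbb (12 and 12 against 41 and 23 in myl7:nucDsRed+ libraries, log2 -1.08 ± 0.38, adjusted p = 0.0356) and not called with junba, where it had 33 and 45. The pak1 call was lost without either junbb library or myl7:nucDsRed+ replicate 1 (adjusted p up to 0.286), and with equal totals or quantile normalization (up to 0.108). braf, the MAP3K of the ERK branch, was called in no comparison, with log2 changes of -0.25 in gata4:EGFP+ cells, 0.30 with junba and 0.41 with junbb.

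Of 14 promoter members that are MAP2Ks or MAPKs, 3 were lower in gata4:EGFP+ cells, the JNK genes mapk8b and mapk9 and the p38 gene mapk11, and none was higher. Lower calls also outnumber higher ones among all promoter peaks, at 7.78% and 2.57%. mapk8b had 34 and 20 in gata4:EGFP+, 80 and 90 in junba and 82 and 84 in junbb libraries, against 53 and 91 in myl7:nucDsRed+ libraries. The gata4:EGFP+ libraries lay below all 6 others (log2 -1.26 ± 0.31, adjusted p = 0.00712). mapk9 had 28 and 24 in gata4:EGFP+ libraries, against 51 and 59 in myl7:nucDsRed+ libraries (log2 -0.95 ± 0.31, adjusted p = 0.0367), and mapk11 had 55 and 44 against 105 and 88 (log2 -0.90 ± 0.28, adjusted p = 0.0261). The mapk8b call was lost when replicate 2 of either group was left out (adjusted p up to 0.135), and those of mapk9 and mapk11 with any 1 library left out (up to 0.208 and 0.21). With equal totals or centring on peaks near start sites, mapk9 and mapk11 were not called (adjusted p up to 0.137 for both).

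Another JNK gene, mapk10, which in mammals is the JNK of brain and heart, was lower at its promoter with junb overexpression. It had 1 and 2 in junba, 14 and 9 in junbb and 18 and 36 in gata4:EGFP+ libraries, against 43 and 39 in myl7:nucDsRed+ libraries. The junba values are about that of 1 read, which was 1.19 and 2.03 in these libraries, so the size of the change depends on the pseudocount of 5. The log2 change was -2.83 ± 0.42 with junba (adjusted p = 0.0001), the lowest of any member, and -1.50 ± 0.42 with junbb (adjusted p = 0.00965). The junba call held with each library left out, and the junbb call was lost without junbb replicate 2 or myl7:nucDsRed+ replicate 1 (adjusted p up to 0.109). In gata4:EGFP+ cells mapk10 was not called (log2 -0.58 ± 0.42). mapk3, the gene of ERK1, was not called in any comparison (log2 0.09 in gata4:EGFP+ cells, 0.73 with junba, 0.68 with junbb), and neither was the MAP2K gene map2k1 (0.53, 0.32 and 0.41 in the same order).

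Among p38 genes, mapk13 was higher at its promoter with junba (48 and 71 against 22 and 30 in myl7:nucDsRed+ libraries, log2 1.05 ± 0.33, adjusted p = 0.0242) and mapk11 was lower with junbb (49 and 53 against 105 and 88, log2 -0.85 ± 0.28, adjusted p = 0.023). The mapk14b peak, distal at 4538 bp, was lower with junbb (9 and 18 against 42 and 44, log2 -1.42 ± 0.37, adjusted p = 0.00556). Without single libraries these 3 calls were lost too, mapk13 without junba replicate 2 or myl7:nucDsRed+ replicate 1 (adjusted p up to 0.155), mapk14b without junbb replicate 1 (0.0865) and mapk11 with any 1 library left out (up to 0.14) or equal totals (0.153).

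Among 17 phosphatase promoters, 2 (11.8%) were lower in gata4:EGFP+ cells than in myl7:nucDsRed+ cells and none higher, near the 7.78% lower and 2.57% higher of all promoter peaks. dusp4, a nuclear dual-specificity phosphatase of MAPKs, had 30 and 32 in gata4:EGFP+, 52 and 67 in junba and 61 and 56 in junbb libraries, against 72 and 72 in myl7:nucDsRed+ libraries. The gata4:EGFP+ libraries were the lowest (log2 -1.10 ± 0.29, adjusted p = 0.0117). ppm1bb, of the PP2C family of phosphatases, had 57 and 42 in gata4:EGFP+ libraries, against 112 and 123 in myl7:nucDsRed+ libraries (log2 -1.18 ± 0.29, adjusted p = 0.00689). dusp6, known as a phosphatase of ERK that FGF signals induce, was not called in any comparison, with log2 changes of -0.62 in gata4:EGFP+ cells (adjusted p = 0.0602), 0.24 with junba and -0.10 with junbb. The dusp4 call was lost with any 1 library left out (adjusted p up to 0.0973) and with equal totals (0.0571), and that of ppm1bb when replicate 2 of either group was left out (up to 0.109).

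With junba overexpression the cdc25b promoter, the most open of all members, was higher still, with 363 and 501, against 198 and 217 in myl7:nucDsRed+ libraries (log2 1.02 ± 0.22, adjusted p = 0.0021). It held with each library left out, while junbb with 281 and 347 was not called (log2 0.58). ppm1nb was lower at its promoter with junba (24 and 28, log2 -1.21 ± 0.33, adjusted p = 0.0104) and with junbb (35 and 31, log2 -0.92 ± 0.33, adjusted p = 0.0417), against 54 and 82 in myl7:nucDsRed+ libraries. Neither call held without myl7:nucDsRed+ replicate 2 (adjusted p up to 0.128 with junba and 0.296 with junbb, which was also lost without either junbb library, with equal totals and with quantile normalization). A peak inside ppm1aa, another PP2C gene, 1221 bp from its start site, had 23 and 9 in junbb, 60 and 39 in junba and 36 and 46 in gata4:EGFP+ libraries, against 83 and 70 in myl7:nucDsRed+ libraries. It was lower with junbb (log2 -2.04 ± 0.36, adjusted p = 0.000304), a call kept with each library left out, and was not called with junba (log2 -0.60) or in gata4:EGFP+ cells (log2 -0.83).

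The 1 member lower in all 3 comparisons was gadd45ga, a stress-induced gene whose mammalian relatives bind a MAP3K. Its promoter peak at chr8:31368870-31369322 (GRCz11), 65 bp from the start site, had 48 and 49 in gata4:EGFP+, 33 and 57 in junba and 44 and 54 in junbb libraries, against 186 and 136 in myl7:nucDsRed+ libraries. The highest of the 6 values was 57 and the lowest value in myl7:nucDsRed+ libraries 136. The log2 change was -1.62 ± 0.30 in gata4:EGFP+ cells (adjusted p = 0.001), -1.76 ± 0.30 with junba (0.000349) and -1.61 ± 0.30 with junbb (0.000416). Each of these calls held with each library left out and under 3 other scalings. gadd45ga was the only member call in regeneration of which this can be said. mapk8ip1b, the gene of a scaffold protein of the JNK branch, was lower at its promoter with junba (8 and 10) and junbb (7 and 11), against 25 and 48 in myl7:nucDsRed+ libraries, with log2 changes of -1.51 ± 0.41 (adjusted p = 0.0098) and -1.52 ± 0.41 (adjusted p = 0.00771). Both were lost without myl7:nucDsRed+ replicate 2, the junbb call also without junbb replicate 1 (adjusted p up to 0.141 with junba and 0.128 with junbb). The related gadd45aa peak was called in none of the comparisons, with 56 and 66 in gata4:EGFP+, 54 and 63 in junba and 46 and 68 in junbb libraries, against 62 and 88 in myl7:nucDsRed+ libraries.

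**Figure D3:**
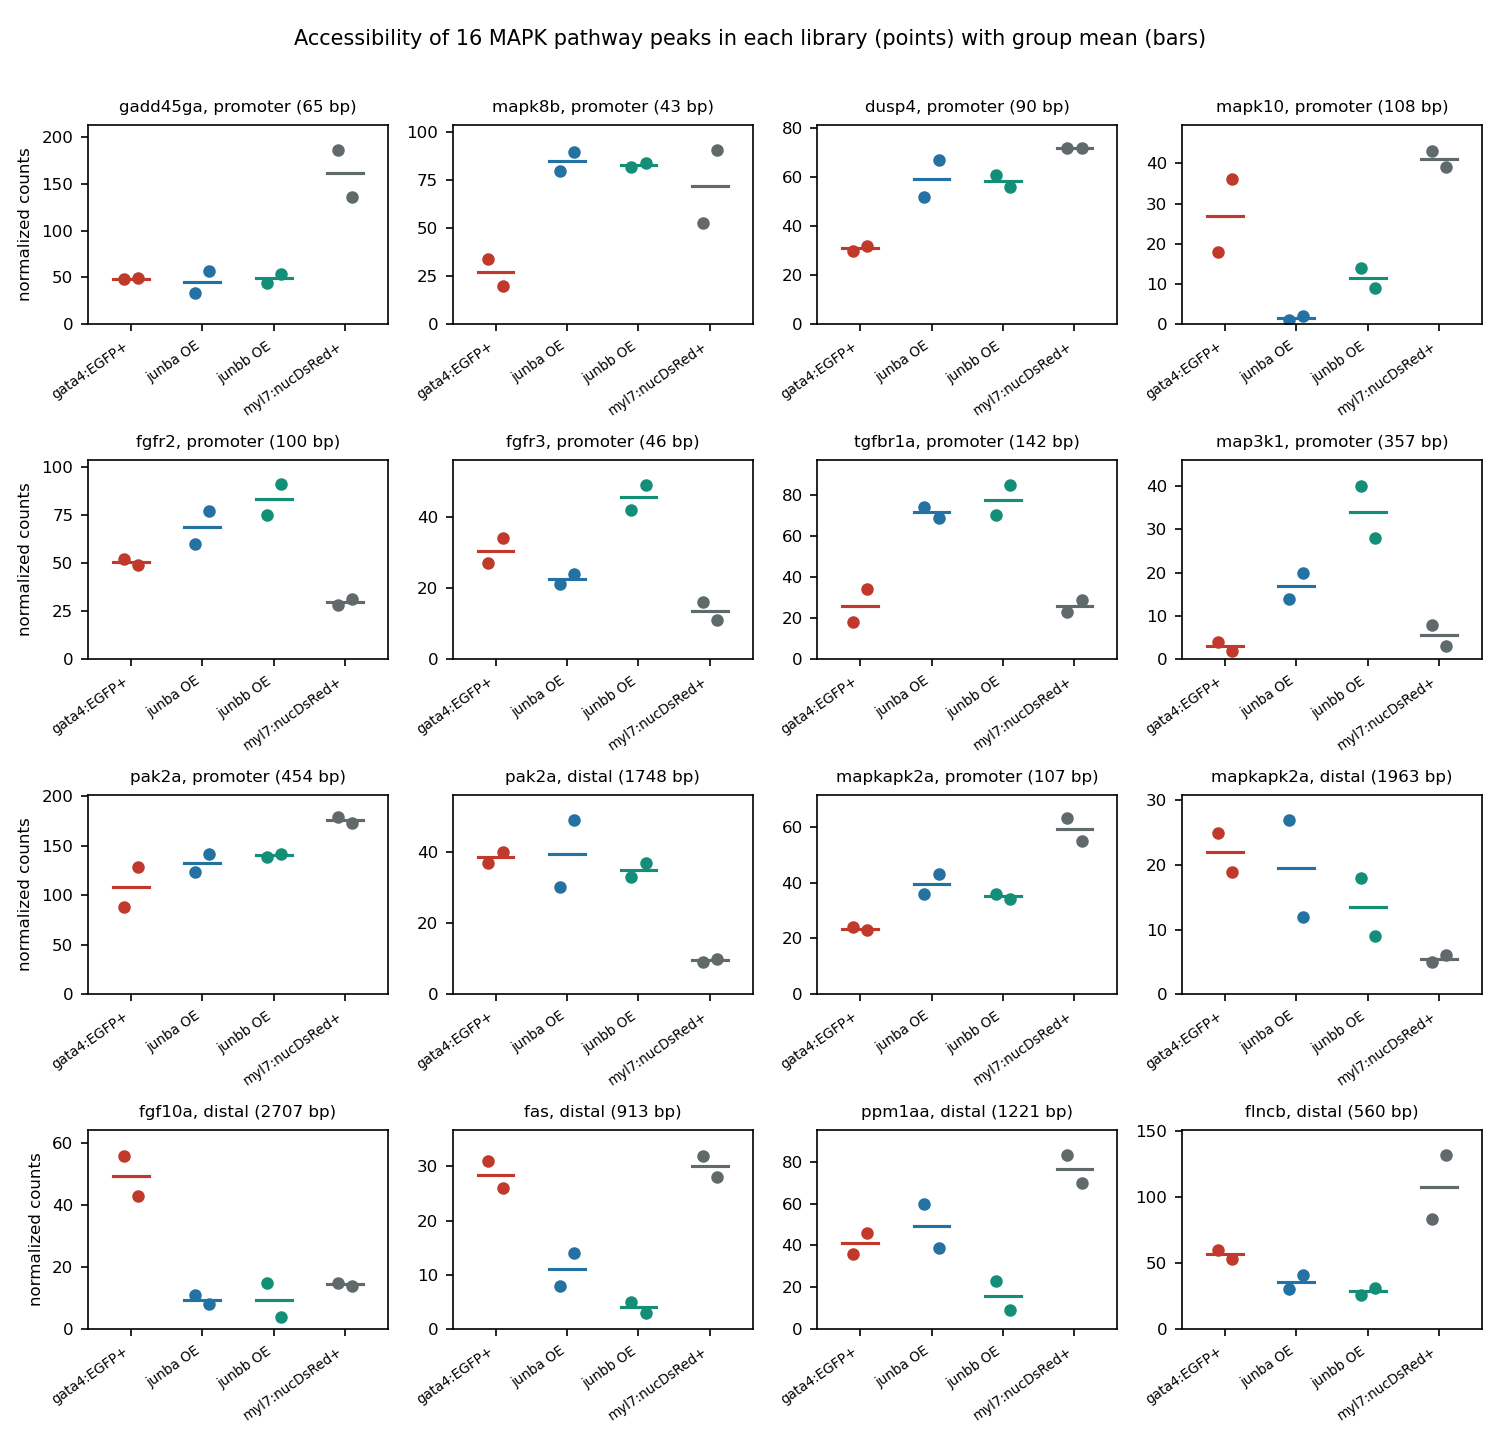
Normalized counts (y axis, from 0) of 16 MAPK pathway peaks in each of the 8 libraries (points) with the group mean (bars), gata4:EGFP+, junba OE, junbb OE and myl7:nucDsRed+ from left to right. gadd45ga is at most 57 outside myl7:nucDsRed+ libraries and at least 136 in them, and the distal pak2a peak is at least 30 outside them and at most 10 in them.

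Kinases downstream of or beside the cascade gave, beside pak2a, another gene with opposite promoter and distal calls. mapkapk2a, the gene of a kinase that p38 activates, had 24 and 23 at its promoter in gata4:EGFP+ libraries, against 63 and 55 in myl7:nucDsRed+ libraries (log2 -1.17 ± 0.32, adjusted p = 0.0148). Its distal peak outside the gene at chr11:21220007-21220263 (GRCz11), with a centre 1963 bp away from the start site, had 25 and 19 in gata4:EGFP+, 27 and 12 in junba and 18 and 9 in junbb libraries, against 5 and 6 in myl7:nucDsRed+ libraries. It was higher in gata4:EGFP+ cells (log2 1.36 ± 0.44, adjusted p = 0.0326) and not called with junba (log2 1.15 ± 0.44) or junbb (log2 0.77 ± 0.44). A further mapkapk2a peak inside the gene at 4040 bp did not follow either, with 37 and 36 in gata4:EGFP+ libraries, against 35 and 34 in myl7:nucDsRed+ libraries. Both regeneration calls of mapkapk2a were lost with any 1 library left out (adjusted p up to 0.107 for the promoter and 0.233 for the distal peak), the promoter call also with equal totals (0.0605) and the distal call with quantile normalization (0.0621). Of the 16 genes with more than 1 member peak, mapkapk2a and pak2a were the only ones with calls in both directions in a comparison.

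A distal peak of akt3b was higher in gata4:EGFP+ cells, with 123 and 99, against 63 and 49 in myl7:nucDsRed+ libraries (log2 0.93 ± 0.31, adjusted p = 0.0407), while the akt2 promoter was lower, with 32 and 22 against 62 and 50 (log2 -0.94 ± 0.32, adjusted p = 0.0425). Both encode AKT kinases of the PI3K pathway, which shares members with the MAPK term, and both calls were lost with any 1 library left out (adjusted p up to 0.281 and 0.301), that of akt2 also with equal totals or centring on peaks near start sites (up to 0.158). The akt3a promoter was higher with junbb (60 and 60 against 25 and 30, log2 1.00 ± 0.32, adjusted p = 0.0214), also lost with any 1 library left out (up to 0.112). prkacab, a catalytic subunit of protein kinase A, was higher with junba (79 and 90, log2 0.89 ± 0.31, adjusted p = 0.0363) and junbb (98 and 68, log2 0.85 ± 0.31, adjusted p = 0.0423), against 53 and 35 in myl7:nucDsRed+ libraries. Neither prkacab call held without myl7:nucDsRed+ replicate 2, nor that with junba without junba replicate 2 (adjusted p up to 0.254), nor that with junbb without either junbb library (up to 0.302), and both were lost when centred on peaks near start sites (0.0767 with junba, 0.0979 with junbb).

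Of the transcription factors, nfatc1 alone was called, at 1 of 7 tested promoters. Among all promoter peaks 2.57% were higher in gata4:EGFP+ cells, 11.9% with junba and 11.9% with junbb. Neither of the 2 tested distal peaks of this role was called. nfatc1, the calcineurin-activated factor known for its role in endocardium and also on the endothelial and endocardial marker list, had 55 and 70 in gata4:EGFP+, 36 and 53 in junba and 60 and 56 in junbb libraries, against 27 and 23 in myl7:nucDsRed+ libraries. All 6 values lay above the controls (log2 1.16 ± 0.32, adjusted p = 0.0134 in gata4:EGFP+ cells, and 1.07 ± 0.32, adjusted p = 0.0133 with junbb), and the junba change of 0.70 was not called. Both calls were lost without myl7:nucDsRed+ replicate 2 or either library of gata4:EGFP+ (adjusted p up to 0.158) or junbb (up to 0.081). The promoters of the growth factor responsive factors srfa and elk1 were called in no comparison, srfa with log2 changes of 0.02, 0.26 and 0.13 and elk1 with -0.85, 0.40 and 0.59 in gata4:EGFP+, junba and junbb cells.

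Channel, chaperone and cytoskeletal members gave 3 genes with calls. Of 11 tested peaks, 1 was lower in gata4:EGFP+ cells, 2 with junba and 1 with junbb, and none was higher. Among all peaks 6.61%, 15.9% and 16.3% were lower and 12.3%, 10.3% and 12.6% higher in the same order. flncb encodes filamin C, an actin crosslinker of muscle, and its peak outside the gene, 560 bp from the start site, had 30 and 41 in junba, 26 and 31 in junbb and 60 and 53 in gata4:EGFP+ libraries, against 83 and 132 in myl7:nucDsRed+ libraries. It was lower with junba (log2 -1.45 ± 0.31, adjusted p = 0.00225) and with junbb (log2 -1.72 ± 0.31, adjusted p = 0.000395), and the junbb call held with each library left out, while that with junba was lost without myl7:nucDsRed+ replicate 2 (adjusted p = 0.0546). The cardiomyocyte marker sums were lower in the same libraries, and their part in this was not tested. cacna2d1a, a calcium channel subunit, was lower at its promoter with junba (14 and 14 against 37 and 32, log2 -1.05 ± 0.37, adjusted p = 0.0384), lost with any 1 library left out (up to 0.159) and with equal totals or quantile normalization (up to 0.0913). hspa8, a constitutive chaperone, was lower in gata4:EGFP+ cells (67 and 76 against 119 and 141, log2 -0.82 ± 0.23, adjusted p = 0.0182), and kept its call without myl7:nucDsRed+ replicate 1 and lost it without any of the other 3 libraries (adjusted p up to 0.151), and was not called under any of 3 other scalings (up to 0.162). Promoters of 2 members without a gene symbol were also called. zmp:0000000936 was higher in gata4:EGFP+ (19 and 29, log2 1.43 ± 0.43, adjusted p = 0.0235) and junba cells (25 and 26, log2 1.53 ± 0.43, adjusted p = 0.0118), against 11 and 2 in myl7:nucDsRed+ libraries. si:zfos-2326c3.2 was lower in gata4:EGFP+ cells (137 and 131 against 195 and 254, log2 -0.71 ± 0.22, adjusted p = 0.0248). The zmp:0000000936 calls were lost without myl7:nucDsRed+ replicate 2 and, in regeneration, without either gata4:EGFP+ library (adjusted p up to 0.274), and the si:zfos-2326c3.2 call without the same 3 libraries (up to 0.232) and under each of 3 other scalings (up to 0.267).

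junba and junbb, paralogs of 1 AP-1 subunit, were also set against each other without the sorted control. None of the 142 members was called, at 0.0541% higher and 0.0338% lower among all 14776 peaks. An unadjusted p under 0.05 was found for 10 of the 142 members, beside 1494 of the 14776 peaks. The lowest p belonged to the distal ppm1aa peak, with 60 and 39 in junba, against 23 and 9 in junbb libraries (log2 1.43, 95% half-width 0.75, limma adjusted p = 0.156). The pak1 promoter had 33 and 45 in junba, against 12 and 12 in junbb libraries (log2 1.36, half-width 0.78, adjusted p = 0.187). Lower in junba but not called were mapk10, with 1 and 2 against 14 and 9 (log2 -1.33, half-width 0.86, adjusted p = 0.271), and the distal map3k4 peak, with 10 and 2 against 16 and 21 (log2 -1.19, half-width 0.95, adjusted p = 0.401). Without junba replicate 1, 1 member, the promoter of the Rac gene rac1a, was called lower (log2 -1.32 ± 0.36, adjusted p = 0.048, against -0.78 and 0.461 with all libraries). The median half-width of the 95% interval over members was 0.69, before any adjustment for the number of peaks. Differences well above it were not called either, such as 1.43 at the distal ppm1aa peak. The absence of calls therefore does not exclude differences of this size between the paralogs.

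Blocking AP-1 with A-Fos left no called change at MAPK pathway genes. 65 of the 66 members of the A-Fos table were tested and 0 were called in either direction by limma, beside 0% of all 6012 tested peaks. None of the 65 had an unadjusted p under 0.05, and 200 of the 6012 did. All 66 peaks overlap a member peak of the shared table, of which they cover 44.9%. The median log2 change was -0.04 for promoter members, against 0.00028 for all promoter peaks, and 0.01 for distal members, against -0.02. 47 of the 65 had a 95% interval within -1 and 1 on the log2(value + 5) scale. In peaks of low value a change of 1 on that scale is more than 2-fold in the normalized counts. MAPK members held 0.920 ± 0.0396% of the nuclear signal in A-Fos (+) and 1.12 ± 0.0892% in A-Fos (-) libraries (SD, n = 3 each), without overlap between the groups. That share moves with the total of all other peaks. Nuclear totals ran from 373292 to 421003 in A-Fos (+) and from 291709 to 346399 in A-Fos (-) libraries. The summed member values overlapped, with 3773, 3416 and 3603 in A-Fos (+) and 3590, 3540 and 3688 in A-Fos (-) libraries.

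The largest A-Fos difference, a distal peak of si:ch211-45c16.2, which the gene name table calls MAP3K13, a MAP3K, had 46, 24 and 32 in A-Fos (+), against 32, 17 and 1 in A-Fos (-) libraries. Its log2 change of 1.16 has an interval from -0.03 to 2.36 (limma adjusted p = 1), and the groups overlap. At the other end, a peak of si:dkey-253i9.4, named rapgef2a in that table, a gene of a Rap GTPase exchange factor, had 11, 11 and 9 in A-Fos (+), against 17, 23 and 20 in A-Fos (-) libraries, without overlap (log2 -0.70, limma adjusted p = 1). Among promoters with a positive change the smallest p was that of mycb, a Myc gene, with 68, 61 and 92 in A-Fos (+), against 49, 69 and 54 in A-Fos (-) libraries (log2 0.33, limma adjusted p = 1). Among those with a negative change it was that of nlk2, a Nemo-like kinase, with 58, 66 and 38 in A-Fos (+), against 88, 67 and 69 in A-Fos (-) libraries (log2 -0.46, limma adjusted p = 1). The A-Fos groups overlap at mycb and do not at nlk2.

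The peaks that differed in regeneration were looked up in the A-Fos table, in which both groups are injured. Of peaks that overlap a member called higher in gata4:EGFP+ cells, 3 were tested, with A-Fos log2 changes of -0.30 to 0.16. They include the distal pak2a peak, with 48, 55 and 52 in A-Fos (+), against 59, 49 and 33 in A-Fos (-) libraries (log2 0.16, interval -0.44 to 0.75). Of 11 that overlap a member called lower, the A-Fos changes ran from -0.51 to 0.48, with 6 above 0. gadd45ga had 23, 25 and 35 in A-Fos (+), against 24, 17 and 19 in A-Fos (-) libraries (log2 0.38, interval -0.32 to 1.07). The tables are normalized separately, so levels in the A-Fos table are not set against those in the shared table.

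**Figure D4:**
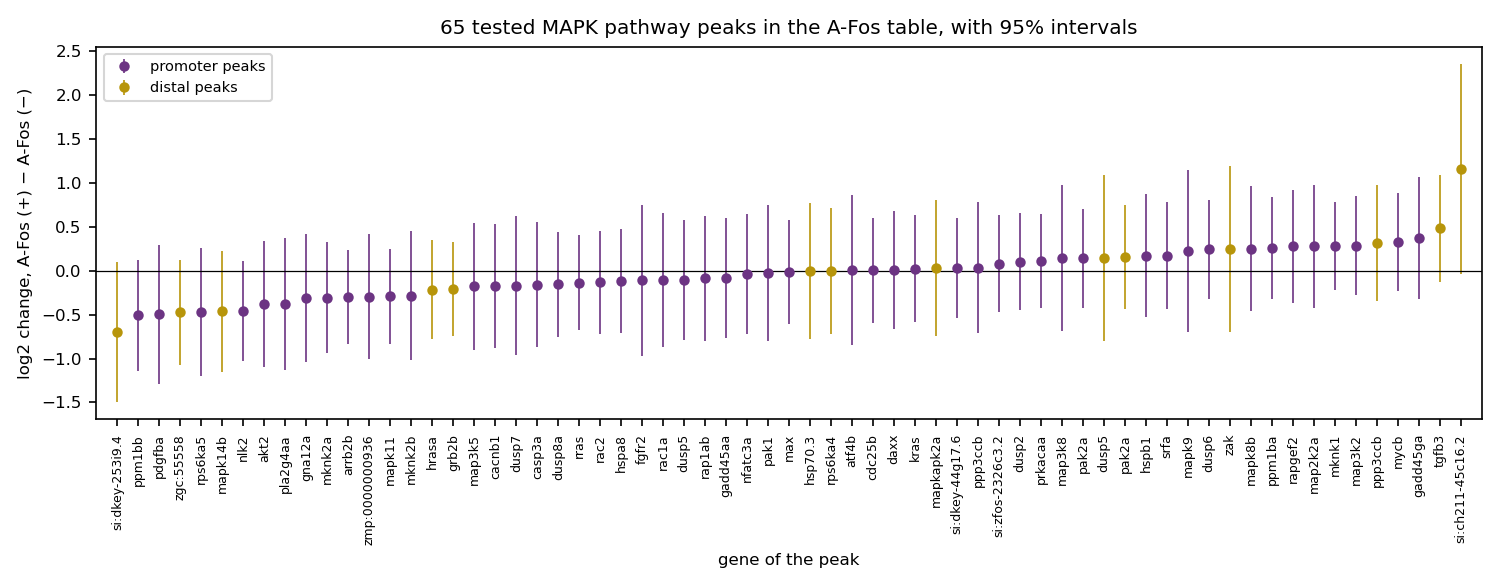
Log2 change on the log2(value + 5) scale, A-Fos (+) minus A-Fos (-), with 95% intervals (y axis) for the 65 tested MAPK pathway peaks, ordered by change (x axis), promoter and distal peaks in different colours. The changes run from -0.70 to 1.16 and every interval includes 0.

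Regulators and targets of the pathway that lack the KEGG term were described in the same way, from a list of 60 genes. Peaks of mapk8ip1b and mycb, which are on the list but carry the term, were removed from it. Of the listed genes 27 then had a peak, with 32 peaks tested. Of these peaks 3 were higher and 1 lower in gata4:EGFP+, 2 and 1 with junba and 3 and 1 with junbb, against myl7:nucDsRed+ cells. Among all peaks 12.3% and 6.61% were higher and lower in gata4:EGFP+ cells, 10.3% and 15.9% with junba and 12.6% and 16.3% with junbb. The median log2 changes were -0.02, 0.09 and 0.09 in the same order, against -0.06, -0.07 and -0.02 for all tested peaks. A distal peak of ccnd1, a G1 cyclin that growth factor signals induce, was higher in all 3, with means of 37.0 in gata4:EGFP+, 32.5 in junba and 50.0 in junbb libraries, against 7.0 in myl7:nucDsRed+ libraries (log2 1.83, 1.64 and 2.22, adjusted p = 0.00176, 0.00257 and 0.000159). A distal peak of socs3a, a cytokine signal inhibitor, was also higher in all 3, with log2 changes of 2.42, 1.21 and 1.24 (adjusted p = 7.88e-05, 0.00724 and 0.00497). spry2, a Sprouty inhibitor of receptor tyrosine kinase signals, was higher at its promoter in gata4:EGFP+ cells (mean 37.0, adjusted p = 0.0396) and with junbb (mean 39.0, adjusted p = 0.0212), against a mean of 14.0 in myl7:nucDsRed+ libraries, and not called with junba (mean 13.0). spry4, of the same family, was lower with junba (log2 -1.09, adjusted p = 0.0126) and junbb (log2 -1.27, adjusted p = 0.00373), and ier5 was lower in gata4:EGFP+ cells (log2 -0.78, adjusted p = 0.022). The ERK targets etv5a, etv5b and egr1 were called in no comparison. Unlike those of the members, the calls of this list were not examined with libraries left out or under other scalings. All of them rest on the same myl7:nucDsRed+ libraries. In the A-Fos table none of the 22 tested peaks of this list was called.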

How the data were processed

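ATAC-seq, which counts the cuts of a transposase in open chromatin, was applied to 14 libraries of adult zebrafish cardiomyocytes in 6 groups. Per the submitters' processing notes, the tools were DESeq and DESeq2 1.18.1, MACS2, deepTools 2.5.7, Picard 2.18.16, STAR 2.6.1d and Trimmomatic 0.36, and the builds danRer11 and GRCz11. How reads were filtered or shifted to the cut site, which thresholds defined peaks and how background was corrected is not given in the sources used here. The deposited score of a peak is, by the names the authors gave the tables, its read number after background correction and DESeq normalization, separately in each of the 2 tables, and the values are whole numbers. Comparisons were therefore made within a table only. Per the file headers, the distance to the transcription start site is measured from the peak centre, and the share of its length inside the gene body is a fraction deposited by the authors. The deposited coordinates are printed as they stand, since counting from 0 or 1 is not stated.

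Raw reads could not be recovered from the rounded values, so count models were left out. What 1 read is worth was estimated from the spacing of the values. It ran from 0.531 to 2.03 in the shared table and from 0.427 to 2.88 in the A-Fos table, or about 468577 to 1451740 and 129391 to 811239 nuclear reads per library. The deeper a library, the smaller the counting error of its values. The spacing accounted for a share of 0.543 to 0.953 of the variation, so these depths are approximate.

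The mitochondrial peak was left out. For peaks whose mean over the table's libraries reached 10, log2(value + 5) was fitted by limma 3.58.1 (R 4.3.3), with moderated variances that follow a mean trend and resist outliers. A call needs a two-sided p that stays under 0.05 after Benjamini-Hochberg adjustment across every tested peak. The 4 groups of the shared table entered 1 fit. The method was tested on simulated data, with the following shares of 2-fold and 4-fold changes recovered: gata4:EGFP+ against myl7:nucDsRed+ 8% and 80%, junba 7% and 80%, junbb 16% and 84%, junba against junbb 5% and 90%, A-Fos 31% and 97%, with 100 peaks changed by each fold. Of all calls in the simulated data, 2 of 90 were false, then 15 of 102, 4 of 104, 14 of 109 and 7 of 135 in the same order. A 2-fold change was thus mostly missed in the simulated data. Few peaks were changed there, while 1818 peaks were called higher and 977 lower in gata4:EGFP+ cells. The adjusted threshold is stricter where few peaks change. These shares therefore need not hold in comparisons with many calls.

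Named peaks are, per comparison, position and direction, the 6 largest log2 changes among called members whose groups do not overlap (where none passed, the smallest p), the 5 highest levels per kb in each table, and genes with promoter and distal calls in opposite directions. Other members are named where they complete a group of called peaks, and 1 called member is counted but not reported here. They were chosen after their values were seen. The members, roles and lists were chosen with earlier results of these data known. Python 3.11.15, pandas 2.3.3, NumPy 2.4.6, SciPy 1.17.1 and Matplotlib 3.10.9 were used.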

Additional observations from a re-analysis of the deposited data

How the results depend on the processing

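No call of a member changed sign under any alternative. For gata4:EGFP+ against myl7:nucDsRed+, the count of members called higher (6) was 3 with a pseudocount of 1 and 2 with a mean of at least 30. Over all peaks the count called higher (1818) was 1145 and 352 in the same order. In the shared table a mean of at least 30 left 98 members tested in place of 142. It left 7289 of all peaks in place of 14776, so its counts are over fewer peaks. The count of members called lower (13) was 3 with equal totals and 5 when centred on peaks near start sites. It was 6 with plain empirical Bayes and 23 with only the 2 groups in the fit. Over all peaks the count called lower (977) was 302, 436, 675 and 1694 in the same order. For junba the counts higher and lower (10 and 10) were 6 and 5 with a mean of at least 30, and 5 were higher with only the 2 groups in the fit. Over all peaks these counts (1515 and 2342) were 864 and 1113, and 939 were higher with only the 2 groups. For junbb 24 were higher with equal totals, in place of 13, and 7 lower with a mean of at least 30, in place of 11. Over all peaks 2662 were higher, in place of 1855, and 1154 lower, in place of 2404, with the same settings. With 1 library left out the counts ran from 0 to 5 higher and 1 to 6 lower in regeneration, 6 to 11 and 3 to 11 with junba, 4 to 12 and 6 to 9 with junbb, and 0 to 1 lower for junba against junbb. Apart from the smaller number of members tested with a mean of at least 30, the cause of these shifts was not tested. Each omission in the shared table leaves a group with a single library. The fit with the replicate number as a block gave 6 higher and 13 lower in regeneration, 11 and 10 with junba, 14 and 11 with junbb and 0 in the others. The labels do not say whether the numbers pair the samples. In the shared table same-numbered libraries deviated from their group means with correlations of -0.0323 to 0.0204. In the A-Fos table these were 0.28, 0.256 and 0.0823, against -0.242 to 0.0307 for libraries with different numbers. In these deviations each A-Fos library was thus closest to its own number in the other group. In the log2 values themselves this did not hold throughout. A-Fos (+) replicate 3 had a correlation of 0.808 with A-Fos (-) replicate 2 and of 0.804 with A-Fos (-) replicate 3. What this reflects was not tested. The main A-Fos fit did not pair the libraries. Calls kept both in every omission and under every other scaling were 0 of 6 higher and 1 of 13 lower in regeneration, 3 of 10 and 2 of 10 with junba, and 3 of 13 and 5 of 11 with junbb. In the A-Fos table, up to 4 members had an unadjusted p under 0.05 under another setting (equal totals), and none was called. With 2 or 3 libraries a group, the median half-width of the member intervals was 0.69 in the shared and 0.683 in the A-Fos table on the log2(value + 5) scale. Single intervals were wider. Changes under 1 on that scale were mostly not called, though some were, such as the pak2a promoter in regeneration (log2 -0.70). The absence of a call does not exclude such changes.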

Other observations

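Beside the MAPK term, members carry other KEGG terms of the authors' annotation. FoxO signaling was also carried by 24.5% of the 147 member peaks of the shared table, 24.5% GnRH signaling, 23.8% focal adhesion, 21.1% regulation of actin cytoskeleton, 20.4% ErbB signaling and 20.4% VEGF signaling, so results for these peaks belong to those terms as well. The peaks called with both junba and junbb were 5 of 10 higher with junba (50.0%) and 5 of 13 higher with junbb (38.5%), and 7 of 10 (70.0%) and 7 of 11 (63.6%) lower. They were set against the same 2 myl7:nucDsRed+ libraries and shared isolation method and cell number. The same overlap was not counted over all peaks, so these shares are not read as a trait of MAPK members. Over the 3 comparisons with myl7:nucDsRed+, the most frequent member pattern after no call (96 peaks) was a single call, lower in gata4:EGFP+ cells, with 11 peaks. Such patterns were not counted over all peaks. Among all promoter peaks, too, lower calls (7.78%) outnumbered higher ones (2.57%) in gata4:EGFP+ cells.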
